A study of Mus musculus with 18 samples.

Results

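The 10 genes described here are *Tfeb* and 9 genes of the autophagy pathway (*Ulk1*, *Becn1*, *Wipi1*, *Atg5*, *Atg7*, *Map1lc3a*, *Map1lc3b*, *Gabarapl1* and *Sqstm1*). They were picked by gene symbol from the 23352 symbols measured in liver poly(A) RNA of 18 male C57BL6 mice aged 20 weeks, all fed a high-fat diet (HFD). Each mouse gave 1 library, from 9 wild-type (WT) mice and 9 mice with a whole-body homozygous knockout of *Gpr180* (*Gpr180*KO). The knockout allele was made by CRISPR/Cas9 and lacks exon 6, so a truncated mRNA can still be read, and all tissues lack the gene, not the liver alone. The mice carry names of 2 styles, W317HFD and WThfd131 being examples. They are called series 1 (4 WT and 4 *Gpr180*KO mice) and series 2 (5 of each), and may be batches, since the labels do not say what the styles mean. Values are FPKM, the fragments of a gene scaled by its transcript length and by the mapped reads of the library. The study examined signaling of mTORC1, a kinase complex that acts on the ULK1 and TFEB proteins, in these livers. The comparison here asks whether RNA of autophagy genes and *Tfeb* differed between the genotypes.

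Autophagy encloses parts of the cytoplasm, including lipid droplets in hepatocytes, in a double membrane and delivers them to lysosomes. When nutrients are plentiful mTORC1 phosphorylates and restrains ULK1, the kinase that starts the process, and it keeps the transcription factor TFEB in the cytoplasm. Freed TFEB enters the nucleus and activates lysosomal and autophagy genes through the CLEAR element, whose core is an E-box. Both controls act on proteins, and RNA levels do not measure autophagic flux, phosphorylation or where TFEB resides.

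Promoter windows from RefSeq (GRCm38.p6, from 250 bases before to 50 bases after a gene's start) were held for 8 of the 10 genes, in 10 windows. *Becn1* and *Map1lc3a* had no entry in that table. The E-box letters CACGTG, which read the same on both strands, were found in 2 genes, *Atg5* and *Atg7*, and in 7.15% of all 32851 windows. The longer palindrome TCACGTGA, which contains the E-box, was found in none of the 8 genes and in 0.974% of all windows. The E-box begins 14 bases before the start of *Atg5* and 132 bases before that of *Atg7*. The *Atg5* window is chr10:44268089-44268388 (plus strand). The *Atg7* window is chr6:114670846-114671145 (plus strand), and its start lies 27999 bases inside the *Atg7* locus of the expression files. *Wipi1* is shown as the gene with the largest difference between genotypes, from chr11:109611340-109611639 (minus strand), and its window holds neither motif. The sequences run 5′ to 3′ with the E-box in capitals.
Atg5: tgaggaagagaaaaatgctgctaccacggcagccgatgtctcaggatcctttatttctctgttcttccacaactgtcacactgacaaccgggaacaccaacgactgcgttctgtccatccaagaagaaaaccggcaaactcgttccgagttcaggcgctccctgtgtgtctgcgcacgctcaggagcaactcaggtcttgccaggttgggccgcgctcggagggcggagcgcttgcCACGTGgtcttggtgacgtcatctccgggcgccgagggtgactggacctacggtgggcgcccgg
Atg7: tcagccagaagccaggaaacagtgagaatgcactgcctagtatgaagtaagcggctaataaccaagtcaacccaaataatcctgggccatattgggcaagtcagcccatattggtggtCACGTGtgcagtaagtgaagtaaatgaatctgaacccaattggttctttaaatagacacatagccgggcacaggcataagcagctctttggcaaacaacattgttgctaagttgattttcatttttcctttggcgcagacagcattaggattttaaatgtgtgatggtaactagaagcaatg
Wipi1: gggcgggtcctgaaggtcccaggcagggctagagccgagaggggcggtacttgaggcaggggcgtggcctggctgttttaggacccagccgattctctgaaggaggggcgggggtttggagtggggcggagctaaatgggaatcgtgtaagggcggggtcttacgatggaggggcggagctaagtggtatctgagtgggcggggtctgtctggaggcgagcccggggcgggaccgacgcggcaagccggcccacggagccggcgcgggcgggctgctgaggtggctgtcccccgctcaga

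The 18 tables hold no counts, so the depth of each value is unknown. From the FPKM steps of lowly expressed genes, the libraries lay between 44.3 and 100% of the deepest. *Gpr180* itself had 4.46 to 9.24 FPKM in WT livers and 0.876 to 1.99 FPKM in *Gpr180*KO livers, with no overlap. Of the marker lists, that of hepatocytes had the highest summed level in every library. Its 7 measured markers summed to 17120.5 to 21875.6 FPKM in WT and 19624.5 to 32701.8 FPKM in *Gpr180*KO livers. The library KOhfd51 of series 2 stood apart. Its FPKM summed to 718746 against a median of 570149 over the 18 libraries, and its level of *Cfd*, the gene of adipsin, was 277.7 FPKM against 4.36 to 97.1 FPKM in the other *Gpr180*KO livers. *Cfd* made up most of the summed level of 5 adipocyte markers there (316.6 FPKM), while *Cidec* was at 38.9 FPKM, within the range of the other *Gpr180*KO livers (1.65 to 59.1 FPKM), and *Adipoq*, *Plin1* and *Lep* were at 0. Its summed hepatocyte markers, 32701.8 FPKM, were the highest of all, against 19624.5 to 22337.5 FPKM in the other *Gpr180*KO livers. Differences of the 10 genes over all livers that rest on KOhfd51 are given with and without it. The correlations within series 2 and of centred values include it. The median of all genes tested was also lower in *Gpr180*KO livers, by 0.13 on the log2 scale, and median-of-ratios scaling between libraries took this shift to -0.01. Relative to the median gene, the log2 differences of the 10 genes were 0.06 (*Tfeb*), 0.01 (*Ulk1*), 0.13 (*Becn1*), -0.24 (*Wipi1*), 0.09 (*Atg5*), 0.08 (*Atg7*), 0.01 (*Map1lc3a*), 0.12 (*Map1lc3b*), 0.23 (*Gabarapl1*) and 0.10 (*Sqstm1*).

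The genes spanned a wide range of levels. Per length of transcript, *Sqstm1* (219.9 ± 34.2 FPKM, SD, n = 18) and *Gabarapl1* (207.4 ± 21.4 FPKM) were highest. *Sqstm1* encodes p62, the receptor that carries ubiquitinated cargo to the forming membrane, and *Gabarapl1* a protein of the ATG8 family that is attached to that membrane. Their order was not fixed, as *Sqstm1* exceeded *Gabarapl1* in 10 of 18 livers. *Map1lc3b* followed at 63.0 ± 5.42 FPKM, above *Map1lc3a* (26.6 ± 8.55 FPKM) in 18 of 18 livers, both of them LC3 members of the ATG8 family. *Map1lc3a* and *Becn1* (25.9 ± 1.96 FPKM) did not separate, with *Map1lc3a* higher in 9 of 18 livers. *Atg5* (22.0 ± 1.88 FPKM), *Ulk1* (18.7 ± 3.33 FPKM) and *Atg7* (12.7 ± 1.88 FPKM) came next with overlapping ranges. *Wipi1* (7.01 ± 1.52 FPKM) and *Tfeb* (2.87 ± 0.58 FPKM) were lowest, and *Tfeb* was below *Wipi1* in 18 of 18 livers. Among the genes tested, 96.5% had a lower mean than *Sqstm1* and 22.7% a lower mean than *Tfeb*.

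**Figure D1:**
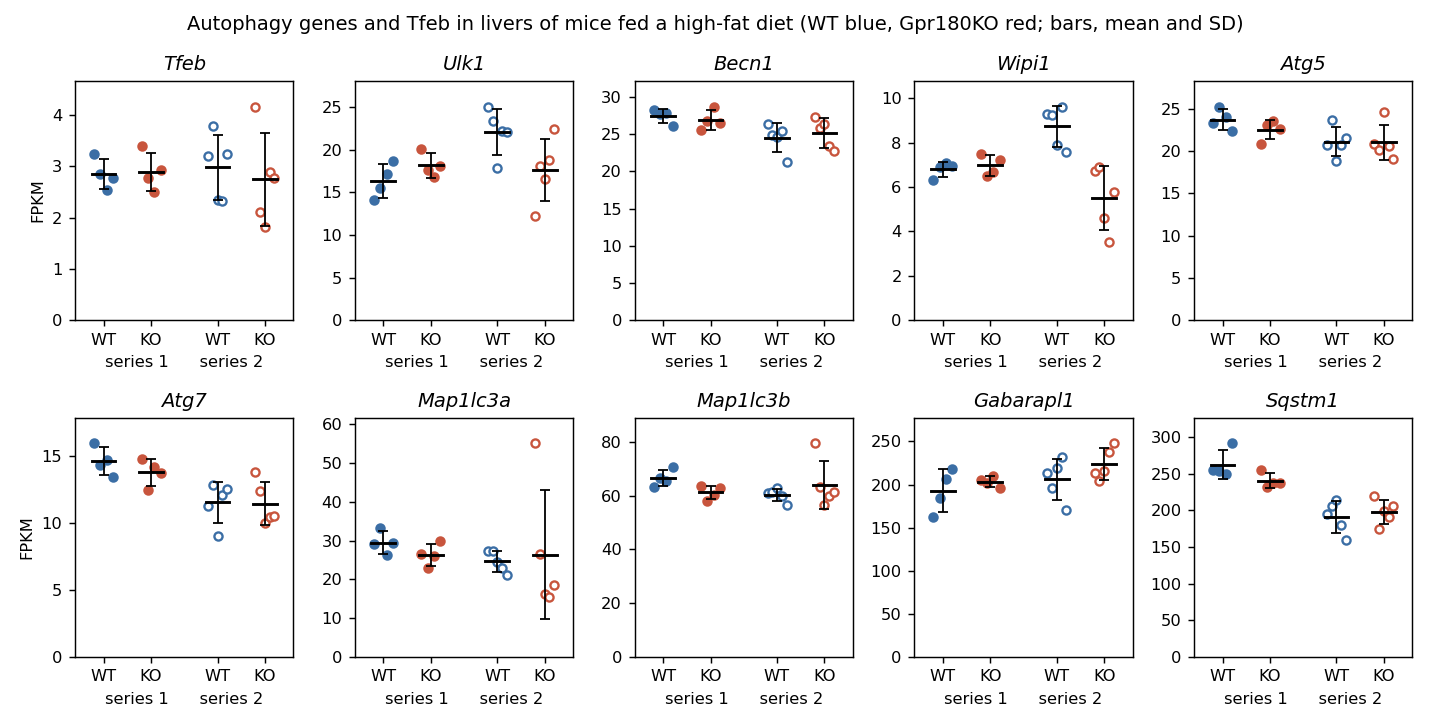
FPKM (linear axis from 0) of the 10 genes in each liver, by genotype and series, with filled points for series 1, open points for series 2, and bars for the mean and SD. The WT and *Gpr180*KO points overlap for 10 of 10 genes over both series, *Wipi1* separates in series 2, and KOhfd51 is the high point of *Map1lc3a* at 55.1 FPKM.

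RNA of the 10 genes did not differ detectably between the genotypes. On log2(FPKM + 0.1), limma with Benjamini-Hochberg adjustment over 10835 genes called 0 of the 10 lower, against 4.28% of all genes tested, and 0 higher, against 0.452%. At an unadjusted p under 0.05 the count was 1 gene by limma and 1 by a two-sided exact permutation test (48620 splits of the livers), *Wipi1* in both. The share of all genes tested at that p was not counted. The median difference of the 10 genes was -0.04 (log2), against -0.13 over all genes tested. For 9 of the 10 genes the 95% interval of the difference lay within 0.5 on the log2 scale in either direction. As deposited, 8 genes had a lower and 2 a higher mean log2 value in *Gpr180*KO livers, and 76.95% of all genes tested had a lower one. With median-of-ratios scaling 1 of the 10 had a lower and 9 a higher value. The median of all genes was then -0.005, and the share of all genes with a higher value was not counted. TPM scaling turned *Becn1*, so direction depended on scaling for 8 of the 10.

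*Tfeb* ranged from 2.33 to 3.79 FPKM (median 2.85) in WT and from 1.82 to 4.17 FPKM (median 2.77) in *Gpr180*KO livers. The ranges overlapped, and KOhfd51 held the highest value. The log2 difference was -0.07 (SE 0.14, 95% interval -0.35 to 0.22, limma adjusted p = 0.777). *Ulk1* ranged from 14.1 to 25.1 FPKM (median 18.6) in WT and from 12.2 to 22.4 FPKM (median 18.1) in *Gpr180*KO livers, and here KOhfd51 held the lowest value. Its log2 difference was -0.12 (SE 0.12, 95% interval -0.37 to 0.13, limma adjusted p = 0.557), which is the shift of the median gene. *Becn1*, which encodes the scaffold of the lipid kinase complex that makes PI3P on the forming membrane, had a median of 26.1 FPKM in WT (21.3 to 28.3) and 26.4 FPKM in *Gpr180*KO livers (22.7 to 28.7). Its log2 difference was 0.01 (SE 0.07, 95% interval -0.13 to 0.15), and 0.13 with median-of-ratios scaling (limma adjusted p = 0.313).

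The genes of the conjugation enzymes were not called. ATG7 is the E1-like enzyme that activates ATG8 proteins and ATG12, and ATG5 is the protein to which ATG12 is joined. *Atg5* had a median of 22.3 FPKM in WT (18.8 to 25.3) and 20.9 FPKM in *Gpr180*KO livers (19.05 to 24.6), a log2 difference of -0.04 (95% interval -0.18 to 0.11). *Atg7* had a median of 12.8 FPKM in WT (8.99 to 15.9) and 12.4 FPKM in *Gpr180*KO livers (9.96 to 14.7), a log2 difference of -0.05 (95% interval -0.27 to 0.18). In both genes the groups overlapped almost entirely. *Sqstm1* had a median of 214.6 FPKM in WT (160.1 to 291.5) and 219.6 FPKM in *Gpr180*KO livers (174.9 to 255.7), a log2 difference of -0.03 (95% interval -0.25 to 0.20). Among the ATG8 genes, *Map1lc3b* differed by -0.01 (95% interval -0.15 to 0.13) and *Gabarapl1* by 0.11 (95% interval -0.05 to 0.27, limma adjusted p = 0.42). *Gabarapl1* ranged from 162.4 to 231.6 FPKM in WT and from 196.1 to 247.9 FPKM in *Gpr180*KO livers, and 2 *Gpr180*KO livers lay above every WT liver. With median-of-ratios scaling its difference was 0.23 (95% interval 0.04 to 0.42, limma adjusted p = 0.173, and 0.0715 with the series as a block), and it was then the 1 gene of the 10 with an unadjusted p under 0.05. Exons of *Becn1*, *Sqstm1*, *Map1lc3b* and *Gabarapl1* overlap exons of a gene on the opposite strand in GENCODE (*Cntd1*, *Mrnip*, *Zcchc14* and *1700101I11Rik*), and the sources used here do not say that reads were assigned by strand, so their values may include reads of those genes.

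**Figure D2:**
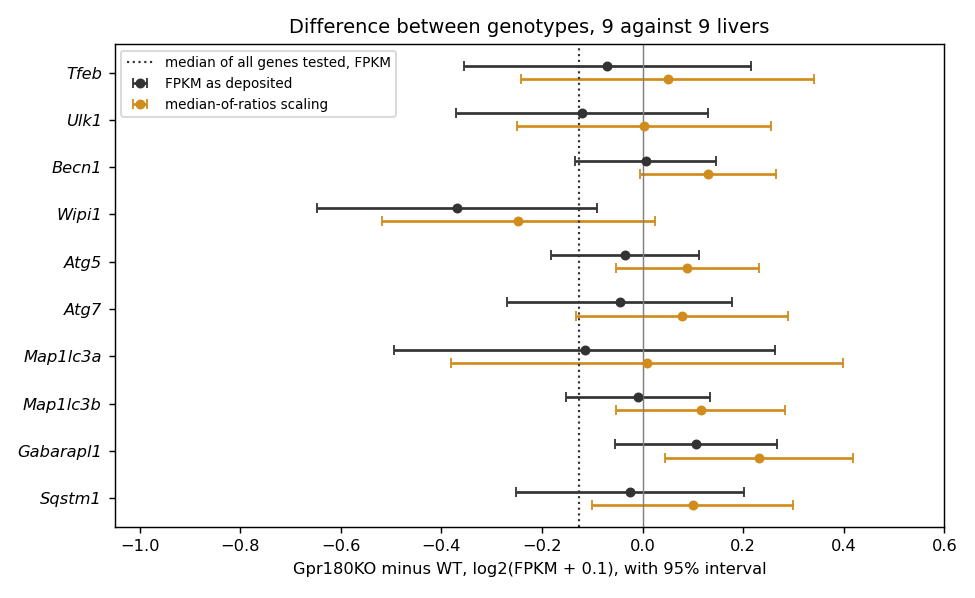
*Gpr180*KO minus WT on log2(FPKM + 0.1) for the 10 genes (points) with 95% intervals from limma, as deposited (black) and after median-of-ratios scaling (orange). The dotted line is the median of all genes tested, -0.13, and *Wipi1* is the gene farthest below 0 on both scales, at -0.37 and -0.25.

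*Map1lc3a* rested most on a single library. In WT livers it ranged from 21.0 to 33.2 FPKM (median 27.2), and in *Gpr180*KO livers other than KOhfd51 from 15.3 to 29.8 FPKM, while KOhfd51 had 55.1 FPKM. Over all livers the log2 difference was -0.12 (SE 0.18, limma adjusted p = 0.718). Without KOhfd51 it was -0.26 (SE 0.13, limma adjusted p = 0.227), and *Tfeb* was at -0.14 (SE 0.12, limma adjusted p = 0.494). KOhfd51 also had the highest *Map1lc3b* value, 79.6 FPKM, against 56.4 to 63.6 FPKM in the other *Gpr180*KO livers. The log2 difference of *Map1lc3a* was -0.03 without KOhfd54, -0.04 without KOhfd53 and -0.07 without KOhfd56.

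On the deposited scale *Wipi1* had the lowest p of the 10 genes. WIPI1 binds PI3P on the forming membrane and recruits the proteins that extend it. *Wipi1* ranged from 6.31 to 9.63 FPKM (median 7.58) in WT and from 3.51 to 7.49 FPKM (median 6.68) in *Gpr180*KO livers. The groups overlapped, but 9 of 9 *Gpr180*KO livers were below the WT median and 5 WT livers were above every *Gpr180*KO liver. The mean was 7.88 ± 1.23 FPKM (SD, n = 9) in WT and 6.16 ± 1.31 FPKM in *Gpr180*KO livers. The log2 difference was -0.37 (SE 0.13, 95% interval -0.65 to -0.09), or -0.24 relative to the median gene. The exact permutation p was 0.00983, and after adjustment over all genes the limma p was 0.11, so the difference was not called. With median-of-ratios scaling it was -0.25 (limma adjusted p = 0.347), and with weights per library -0.17 (limma adjusted p = 0.277). With TPM scaling it was -0.41 (limma adjusted p = 0.0849), and with the series as a block -0.37 (limma adjusted p = 0.0851). Leaving out 1 liver gave -0.41 to -0.27 (limma adjusted p 0.0794 to 0.208).

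The *Wipi1* values of the genotypes were apart in series 2 and overlapped in series 1. In series 1 the WT livers had 6.31, 6.89, 7.07 and 6.95 FPKM and the *Gpr180*KO livers 7.49, 6.50, 6.68 and 7.24 FPKM. Those groups overlapped, with a log2 difference of 0.03 (SE 0.07, limma adjusted p = 0.80). In series 2 the WT livers had 9.31, 9.27, 7.88, 9.63 and 7.58 FPKM and the *Gpr180*KO livers 6.72, 6.89, 4.62, 3.51 and 5.75 FPKM. Every *Gpr180*KO liver of series 2 was below every WT liver of series 2, with a log2 difference of -0.69 (SE 0.18, 95% interval -1.09 to -0.29, limma adjusted p = 0.119). The median of all genes tested was -0.17 in series 2, and how many genes separated there was not counted. After median-of-ratios scaling the *Wipi1* difference was -0.54 in series 2 (limma adjusted p = 0.247). The test of the difference between the series gave -0.73 for *Wipi1* (SE 0.22, 95% interval -1.19 to -0.27, limma adjusted p = 0.581). Of 34 alternative fits, the 1 that called *Wipi1* was series 2 without KOhfd51 (-0.77, limma adjusted p = 0.0456), a setting chosen after the data were seen, and 0 called any other of the 10 genes.

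**Figure D3:**
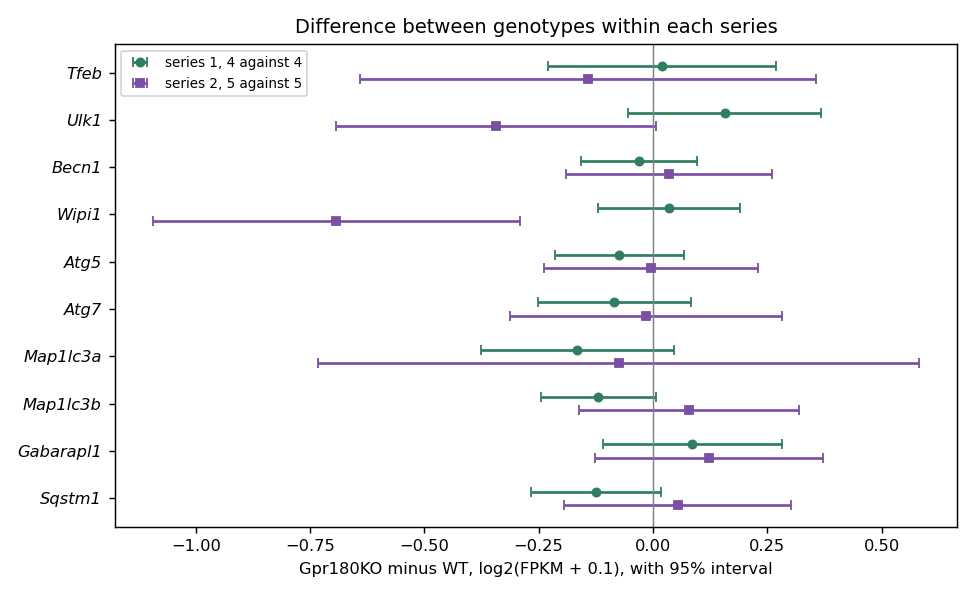
*Gpr180*KO minus WT on log2(FPKM + 0.1) within series 1 (circles) and within series 2 (squares), with 95% intervals from limma fitted in each series. *Wipi1* lies at 0.03 in series 1 and -0.69 in series 2, *Ulk1* at 0.16 and -0.34, and the wide interval of *Map1lc3a* in series 2 includes KOhfd51.

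*Ulk1* also differed in sign between the series. Its WT mean was 16.3 ± 1.98 FPKM (SD, n = 4) in series 1, below the 18.2 ± 1.42 FPKM of the *Gpr180*KO livers. For series 2 the WT mean was 22.1 ± 2.67 FPKM (SD, n = 5), above the *Gpr180*KO mean of 17.6 ± 3.69 FPKM. The log2 difference was 0.16 and -0.34 in turn, and -0.22 (SE 0.12, limma adjusted p = 0.256) in series 2 without KOhfd51, where *Ulk1* was lowest. The test of the difference between the series gave -0.50 (SE 0.20, limma adjusted p = 0.611). The interaction of genotype and series was called by limma for 0 of the 10 genes and for 0 of all genes tested. An unadjusted limma p under 0.05 was found for 2 of the 10, *Wipi1* (0.00392) and *Ulk1* (0.0244), and for 833 of all 10835 genes tested. 

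Some genes differed in level between the series, taken over both genotypes together. A fit of the series beside the genotype, chosen after the data were seen, called 2 of the 10 genes lower in series 2, against 19.1% of all genes tested, and 0 higher, against 3.78%. The share called lower was thus close to that of all genes. The series were not tested within each genotype. *Sqstm1* had 251.5 ± 18.6 FPKM (SD, n = 8) in series 1 and 194.6 ± 18.5 FPKM (SD, n = 10) in series 2, a log2 difference of -0.37 (SE 0.07, limma adjusted p = 0.00112). *Atg7* had 14.2 ± 1.04 FPKM in series 1 and 11.5 ± 1.49 FPKM in series 2, a log2 difference of -0.31 (SE 0.08, limma adjusted p = 0.0103). For *Sqstm1* every liver of series 2 lay below every liver of series 1. The median gene was also lower in series 2, by 0.11. After median-of-ratios scaling the *Sqstm1* difference was -0.27 (limma adjusted p = 0.0184) and that of *Atg7* -0.21 (limma adjusted p = 0.119).

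The genes varied together only in part. Of 45 pairs, 1 passed a permutation test of Pearson's r over the 18 livers with adjustment over the pairs (15 had an unadjusted p under 0.05), the pair of *Map1lc3a* and *Map1lc3b*. By Spearman's rho 8 pairs passed, this pair included, with *Ulk1* and *Becn1* (rho = -0.721, adjusted permutation p = 0.0183) and *Atg7* and *Sqstm1* (rho = 0.719, adjusted permutation p = 0.0183) next. With values centred on genotype and series, 1 passed by rho, and r of *Atg7* and *Sqstm1* was 0.186 within series 1 and -0.265 within series 2. The r of the 2 LC3 genes was 0.837 (p = 4e-05, adjusted p = 0.0018, 100000 resamples), and their rho was 0.771 (permutation p = 0.00029, adjusted p = 0.013). The relation was positive within series 1 (r = 0.685, exact permutation p = 0.0649, n = 8) and within series 2 (r = 0.879, permutation p = 0.00635, n = 10), but neither passed adjustment over the pairs (adjusted p = 0.417 and 0.286). With each value centred on its genotype and series mean, r was 0.903 (permutation p = 5e-05, adjusted p = 0.00225). The series 2 and the centred r include KOhfd51 and were not computed without it. Without the 2 livers farthest from the *Map1lc3a* median, r was 0.725. Without KOhfd51, r was 0.681 (permutation p = 0.00249, adjusted p = 0.0418) and 8 pairs passed, among them *Sqstm1* with *Map1lc3b* (r = 0.718) and *Ulk1* with *Becn1* (r = -0.613). With median-of-ratios scaling the *Map1lc3a* and *Map1lc3b* r was 0.723 (permutation p = 0.0249, adjusted p = 0.148), and 0 pairs passed by r or by rho, with 13 at an unadjusted p under 0.05 for r.

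**Figure D4:**
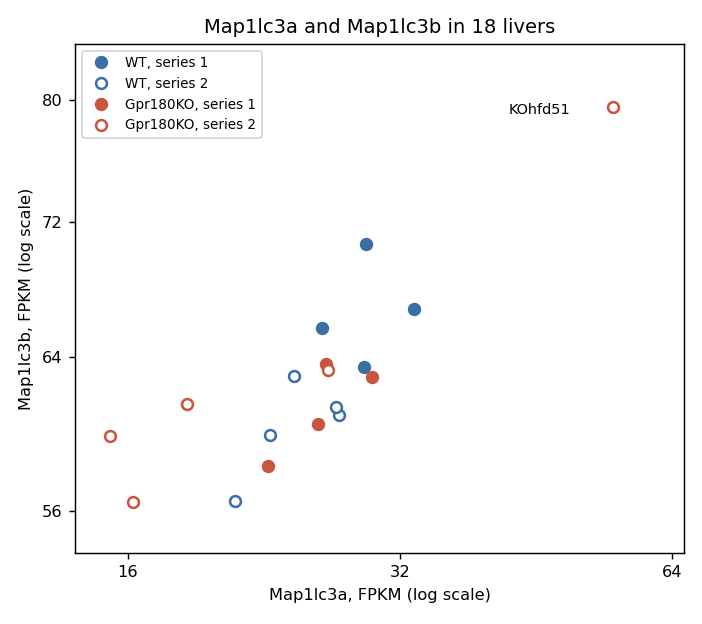
*Map1lc3b* against *Map1lc3a* in the 18 livers, in FPKM on log axes, by genotype (color) and series (filled or open). KOhfd51, at 55.1 and 79.6 FPKM, lies far from the other 17 livers, among which the relation was still positive (r = 0.681).

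The other genes of the pathway were counted in 9 lists that run from the ULK1 complex to lysosomal genes of the CLEAR network, the 10 genes included. Of 94 genes, 92 were tested, and limma called 3 lower and 0 higher in *Gpr180*KO livers, against 4.28% and 0.452% of all genes tested. Unadjusted, 22 had a p under 0.05. The share of all genes tested at that p was not counted, so this count and those of single lists have no background. Means were lower for 84.8% of these genes and for 76.95% of all genes tested, with a median log2 difference of -0.12 against -0.13. In the ULK1 complex (5 genes), the class III PI3-kinase complex (8), the PI3P effectors (8), conjugation (11), the ATG8 family (5), cargo receptors (12) and fusion (13), no gene was called by limma, and 11 had an unadjusted p under 0.05. The lowest p of each of those lists belonged to *Atg13* (-0.18, limma adjusted p = 0.349), *Rubcn* (-0.18, 0.32), *Wipi1*, *Atg4a* (-0.22, 0.0678), *Gabarapl1*, the mitophagy receptor *Fundc1* (-0.33, 0.101) and the fusion adaptor *Plekhm1* (-0.31, 0.0527). Leaving out WThfd157 brought *Fundc1* under the threshold (adjusted p = 0.025), and leaving out WThfd157 or any *Gpr180*KO liver of series 1 brought *Plekhm1* under it (0.0368 to 0.0497). With the series as a block, limma called *Plekhm1* (adjusted p = 0.0141) and *Atg4a* (0.039) lower, and with weights per library *Atg4a* (0.00578) and *Fundc1* (0.00489).

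The 3 genes called lay with the regulators of TFEB and among lysosomal enzymes. *Rraga* encodes RagA, a GTPase that brings mTORC1 and TFEB to the lysosome. It had 26.9 ± 2.38 FPKM (SD, n = 9) in WT and 22.4 ± 1.94 FPKM in *Gpr180*KO livers (log2 -0.26, SE 0.07, limma adjusted p = 0.0392), and was the 1 gene called of 13 tested in its list. *Hexa*, the alpha chain of beta-hexosaminidase, had 45.05 ± 5.59 FPKM in WT and 31.5 ± 5.72 FPKM in *Gpr180*KO livers (log2 -0.53, SE 0.11, limma adjusted p = 0.0159). *Hexa* was among the 2 called of 17 lysosomal genes, whose median difference was -0.23. With median-of-ratios scaling *Hexa* stayed called (-0.40, limma adjusted p = 0.0377), *Rraga* (-0.14, 0.254) did not, and *Atg4d*, a protease that trims ATG8 proteins and was named after its value was seen, was called higher (0.35, 0.0409). *Hexa* was called in 18 of 18 fits that left out 1 liver. *Rraga* lost its call without W317HFD, W318HFD, W320HFD, WThfd131, WThfd133, WThfd134, WThfd156, KOhfd52, KOhfd53 or KOhfd54 (adjusted p 0.0516 to 0.0886).

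**Figure D5:**
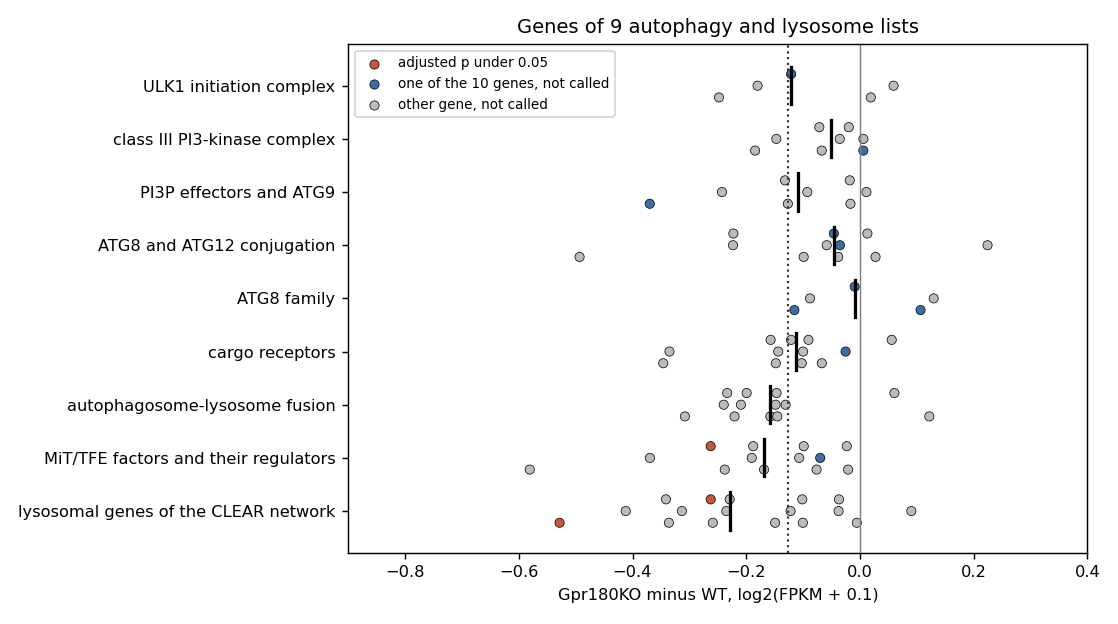
*Gpr180*KO minus WT on log2(FPKM + 0.1) for each tested gene of the 9 lists, with a black bar at each list's median and a dotted line at the median of all genes tested (-0.13). The 3 called genes (red) include *Rraga* and *Hexa*, and the lysosomal list has the lowest median, -0.23.

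Some markers in the macrophage, stellate cell and cholangiocyte lists were lower beside these lysosomal genes. Of all genes tested, 4.28% were called lower. In bulk RNA, fewer cells of a type and less RNA per cell cannot be told apart. Of 8 macrophage markers limma called 3 lower in *Gpr180*KO livers, *Trem2* (log2 -1.82, SE 0.42), *Cd68* (-0.69, SE 0.16) and *Gpnmb* (-2.31, SE 0.61). With median-of-ratios scaling 2 were called, and *Gpnmb* had an adjusted p of 0.0528. In fits that left out 1 liver, *Trem2* was called in 15 of 18 and *Cd68* in 14 of 18. *Lyz2* (-0.56, limma adjusted p = 0.13) and *Adgre1* (-0.29, 0.457) were not called. The Kupffer cell markers *Clec4f* (0.16, SE 0.16), *Marco* (-0.06, SE 0.46) and *Cd5l* (-0.20, SE 0.18) were not called, and the summed level of the list was 140.9 to 416.9 FPKM in WT (median 320.3) and 172.4 to 261.3 FPKM in *Gpr180*KO livers (median 212.0). Of 8 stellate cell and fibroblast markers 4 were called lower, *Lum* (-1.41, SE 0.23), *Col3a1* (-1.73, SE 0.33), *Col1a1* (-1.99, SE 0.42) and *Col1a2* (-1.63, SE 0.37), with sums of 28.5 to 136.6 FPKM and 17.2 to 47.5 FPKM. *Reln* (-0.56, limma adjusted p = 0.0657), *Acta2* (-0.83, 0.169), *Lrat* (-0.31, 0.446) and *Des* (-0.08, 0.812) were not called. Of 5 cholangiocyte markers 2 were tested and both were called lower, *Spp1* (-1.96, SE 0.34) and *Sox9* (-0.70, SE 0.20), with sums, nearly all *Spp1*, of 40.8 to 226.2 FPKM and 17.4 to 51.0 FPKM. In WT livers *Spp1* had a mean of 133.5 FPKM, while *Krt19*, *Krt7* and *Epcam* had 0.98, 0.47 and 0.89 FPKM. The sum therefore does not stand for the list, and which cells the *Spp1* RNA came from was not tested. *Sox9* was called in 4 of 18 fits that left out 1 liver and not with median-of-ratios scaling (adjusted p = 0.121). *Clec4f*, *Marco*, *Cd5l*, *Lyz2*, *Adgre1*, *Gpnmb*, *Col1a1*, *Col1a2*, *Reln*, *Acta2*, *Lrat*, *Des*, *Krt19*, *Krt7* and *Epcam* were named after their values were seen. Limma called 0 of 7 hepatocyte markers, 0 of 6 endothelial markers and 0 of the 2 adipocyte markers tested, of which 1, 0 and 1 had an unadjusted p under 0.05. Over all genes tested the share at that p was not counted. None of the 8 lymphocyte markers reached a mean of 1 FPKM (sums of 1.86 to 4.99 FPKM in WT and 2.01 to 3.29 FPKM in *Gpr180*KO livers), and *Plin1*, an adipocyte marker, was listed at 0 in every library. The part of these cell types in the differences of *Hexa* and *Rraga* was not tested.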

How the data were processed

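Liver poly(A) RNA of 18 mice was sequenced as single reads. Alignment to the mouse genome (mm10) was done by the authors with Illumina's TopHat application, and the deposited values are FPKM per gene for each mouse. The tool that computed FPKM and its annotation are not given in the sources used here. FPKM of entries that share a symbol were summed, and the 24 genes with a failed or overloaded estimate in any library were left out, none of them among the 10. The files' own intervals of FPKM were not used. Groups were taken from the labels, and nothing pairs the mice of the 2 genotypes.

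Genes with a mean of at least 1 FPKM (10835) were compared on log2(FPKM + 0.1), a scale that understates changes of low genes, with limma 3.58.1 in R 4.3.3 (eBayes with trend, Benjamini-Hochberg adjustment, threshold 0.05). Standard errors and intervals cover the spread between mice. On simulated data of 10835 genes with 200 changed, 92% of those changed by 1 and 99% of those changed by 2 (log2) were recovered, and 7.28% of the calls were unchanged genes. Recovery of changes smaller than 1 was not tested. These shares therefore do not apply to differences of the size of *Wipi1* (-0.37) or *Hexa* (-0.53). Pairs of genes were tested by permutation (100000 resamples, or all orders for 8 livers). Other settings tried were a pseudocount of 1 or 0.01, an FPKM minimum of 0.1, of 5 or no minimum, scaling by median of ratios, by 75th percentile or to TPM, a block for the series, each series by itself, weights for libraries, and 1 library left out at a time.

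The genes, lists and tests were chosen with earlier results of these data known. Named genes are the 10, *Gpr180*, the called genes of each list (at most 5) or, with none called, its gene of lowest p, and the 2 lowest of each called marker list. *Rubcn* is *1700021K19Rik* and *Adgre1* is *Emr1* in the files. Across all genes limma called 464 lower and 49 higher, and with median-of-ratios scaling 168 lower and 112 higher. Python 3.11.15 (numpy 2.4.6, pandas 2.3.3, matplotlib 3.10.9) was used for the rest. The values of 1 called gene are not reported here. Normal-diet libraries were not analysed here.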

Additional observations from a re-analysis of the deposited data

Results flagged for a closer look

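In 22 groups of 9 livers (the 10 genes and *Gpr180* in each genotype), 3 had a liver whose gap to its neighbour on the log2 scale was a larger share of the group's range than Dixon's 95% critical value for 9 values. Chance gives about 1 in 20 groups. *Ulk1* was low in KOhfd51 at 12.2 FPKM (gap 0.50 of the range). *Map1lc3b* was high in the same library at 79.6 FPKM (gap 0.651 of the range). *Becn1* was low in the WT liver WThfd157 at 21.3 FPKM (gap 0.505 of the range). Without KOhfd51 the log2 difference was -0.06 (limma adjusted p = 0.792) for *Ulk1* and -0.05 (limma adjusted p = 0.557) for *Map1lc3b*.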

How the results depend on the processing

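The counts of 0 called genes among the 10, lower or higher, held in every alternative fixed at the start, and 0 of the 10 had a called interaction with median-of-ratios scaling, a pseudocount of 1, a minimum of 0.1 FPKM or without KOhfd51. Directions did not hold. With median-of-ratios scaling, with or without the series as a block, log2 differences became positive for *Tfeb* (0.0503), *Ulk1* (0.00266), *Atg5* (0.0886), *Atg7* (0.0775), *Sqstm1* (0.0991), *Map1lc3a* (0.00866) and *Map1lc3b* (0.115), and with 75th percentile scaling for *Tfeb* (0.0205), *Atg5* (0.0581), *Atg7* (0.0471), *Sqstm1* (0.0685) and *Map1lc3b* (0.0844). *Becn1* turned to -0.0317 with TPM scaling, -0.0305 in series 1 and -0.00136 with weights per library. In series 1 alone *Tfeb* was 0.0199, *Ulk1* 0.157 and *Wipi1* 0.0346 (0.104 after median-of-ratios scaling), in series 2 alone *Sqstm1* was 0.0540 and *Map1lc3b* 0.0790 (-0.0014 without KOhfd51), and with weights *Ulk1* was 0.0079. Leaving out 1 liver gave -0.143 to 0.00111 for *Tfeb*, -0.261 to -0.0309 for *Map1lc3a*, -0.0284 to 0.0295 for *Becn1*, -0.0821 to 0.026 for *Sqstm1* and -0.0525 to 0.0113 for *Map1lc3b*.

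The count of 3 pathway genes lower was 5 with a pseudocount of 1, 1 with median-of-ratios scaling (also with the series as a block), 1 with 75th percentile and 5 with TPM scaling, 9 with the series as a block, 10 in series 1, 0 in series 2 and 14 with weights. Over all genes tested, lower or higher, limma called 693 in series 1 and 1 in series 2. The count of 0 in series 2 thus comes from a fit that called almost no gene. With median-of-ratios scaling limma called 280 of all genes, against 513 as deposited. For the other settings the calls over all genes were not counted, so their pathway counts have no background share. Leaving out 1 liver gave 1 (without W317HFD, W318HFD, W320HFD, WThfd133, KOhfd52, KOhfd53 or KOhfd54) to 7 (without WThfd157), with 5 without KO319HFD or KOhfd51. The count higher became 1 with median-of-ratios scaling (also with the block), with 75th percentile scaling and with weights. The 1 pair correlated by Pearson's r became 0 with median-of-ratios scaling and in each series alone, and 8 without KOhfd51. By Spearman's rho it was 8 pairs, and 6 without KOhfd51. The 2 genes lower in series 2 became 1 with median-of-ratios scaling. The cause of these moves was not tested. No paired analysis was possible because the replicate numbers only name the mice. Depth is unknown, and FPKM carry no counting error.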

Other observations

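3 further lists describe states that change autophagy genes in liver. The share of all genes tested with an unadjusted p under 0.05 was not counted, so such counts below have no background. Of 8 tested targets of NRF2, the factor that p62 can free from its inhibitor, limma called 0, 3 had an unadjusted p under 0.05, and 8 of 8 means were lower in *Gpr180*KO livers, as were 76.95% of all genes (median log2 -0.23, against -0.13 over all genes). With median-of-ratios scaling 7 of 8 were lower. The lowest p was that of *Nqo1*, a quinone reductase, with 8.23 ± 2.84 FPKM (SD, n = 9) in WT and 5.46 ± 1.34 FPKM in *Gpr180*KO livers (log2 -0.55, SE 0.19, limma adjusted p = 0.0922). It was called without WThfd157 (-0.65, limma adjusted p = 0.0299), with the series as a block (adjusted p = 0.0177) and with weights per library (0.0385).

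Of 10 tested circadian clock genes limma called 0 and 2 had an unadjusted p under 0.05. *Per2*, a repressor of the clock, had 3.33 ± 0.965 FPKM in WT and 2.19 ± 0.741 FPKM in *Gpr180*KO livers (log2 -0.61, SE 0.21, limma adjusted p = 0.095), with -0.12 in series 1 and -1.01 in series 2. Of 10 fasting response genes limma called 0 and 3 had an unadjusted p under 0.05. *Pck1*, the gene of a gluconeogenic enzyme, had 470.2 ± 201.3 FPKM in WT and 735.3 ± 202.1 FPKM in *Gpr180*KO livers (log2 0.71, SE 0.22, limma adjusted p = 0.0613), and was called without WThfd131 (0.80, 0.0445), WThfd134 (0.82, 0.0263) or KOhfd51 (0.78, 0.0406), and with the series as a block (0.71, 0.0268).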
